A study of Arabidopsis thaliana with 4 samples.

Results

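Root tips of Arabidopsis thaliana held 239 cells, of 10529 sequenced, that carried transcripts of at least 4 of 7 genes, GATA23 and LBD14 among the 7. A cell was selected when it had at least 1 unique molecular identifier (UMI, a tag that marks a captured transcript) in 4 or more of 7 genes, and in fewer than 3 of 4 genes of the phosphate- and potassium-exporting stele. The 7 genes counted for were XTH21 (AT2G18800), TPS8 (AT4G20210), NPF2.4 (AT3G45700), AT3G61490, RSA1 (AT4G28410), GATA23 (AT5G26930) and LBD14 (AT2G31310). The 4 counted against were NPF7.3 (AT1G32450, also called NRT1.5), PHO1 (AT3G23430), SKOR (AT3G02850) and bZIP6 (AT2G22850).

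Plants were 7 days old when the root tip was cut off with a needle, and root ends were collected 16 h later and digested into protoplasts, which are cells freed of their walls. Wild type (WT) was compared with lbd_quad, a quadruple mutant lbd6 lbd36 lbd12 lbd15, and every plant of both genotypes had been cut, so there was no uncut control. The alleles are not given in the labels. Each genotype had 2 droplet libraries of 3' transcript ends, and nothing in the labels says that these came from separate plants, so p-values measure the spread between libraries, which may be technical.

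The pericycle is the cell layer around the vascular tissue of the root, and lateral roots start from it. Auxin primes some of its cells as founders, and GATA23, a GATA transcription factor, is known as an early marker of that step. Auxin then raises LBD transcription factors, LBD16 and LBD29 among them, through the response factors ARF7 and ARF19 and their repressors IAA14 and IAA28, and the founders divide. Other pericycle cells, next to the xylem, load ions into it with transporters such as PHO1, SKOR and NPF7.3.

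The 4 libraries differed in size and depth. WT replicate 1 gave 31 selected cells of 1746, WT replicate 2 gave 139 of 5061, lbd_quad replicate 1 gave 8 of 846 and lbd_quad replicate 2 gave 61 of 2876. Library totals ran from 7073293 to 21280667 UMIs, and those of the selected cells from 124984 to 1327558. The library lbd_quad replicate 1 stood apart, with a median of 6267 UMIs in its unselected cells against 2000 to 2461 in the other libraries. A count of 0 in its 8 selected cells allows a level of up to 0.240 UMIs per 10000 UMIs of the cell, from 3 counts of its total, against 0.0831, 0.0561 and 0.0226 in WT replicate 1, lbd_quad replicate 2 and WT replicate 2. Such limits cover counting error only. Of 10520 distinct cell barcodes, 9 occurred in more than 1 library.

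Selection depended on depth. The median selected cell had 9203 and 8295 UMIs in WT replicates 1 and 2, and 16890 and 8838 UMIs in lbd_quad replicates 1 and 2, each above the 2402, 2000, 6267 and 2461 UMIs of the other cells of that library. Over all libraries, 9316 cells had none of the 7 genes, 632 had 1, 206 had 2, 133 had 3, 108 had 4, 72 had 5, 45 had 6 and 17 had all 7. The number of cells fell at each step with no gap at the threshold of 4, so the selected cells are the upper end of a range and not a set apart by the count alone. Only 3 cells, all in lbd_quad replicate 2, met the count of 4 and were removed for the genes counted against.

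**Figure D1:**
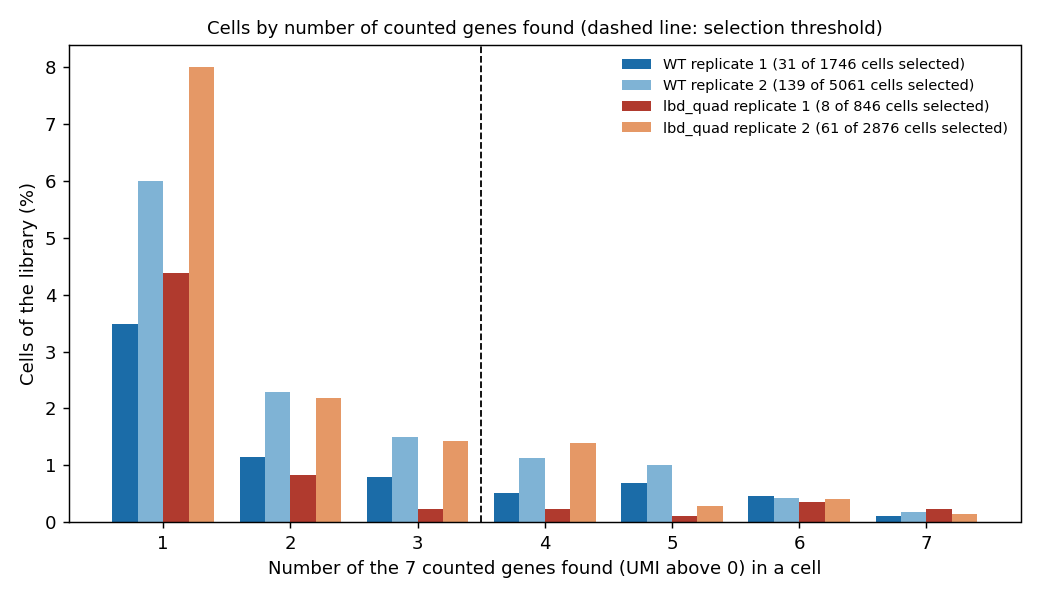
Percentage of the cells of each library (y axis) by the number of the 7 counted genes found in a cell (x axis, 1 to 7), 1 bar per library. Bars fall from 1 to 3 genes without a gap at the dashed threshold, and cells with none of the 7 genes are not drawn.

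Cells just inside and just outside the threshold were set side by side. The 106 selected cells with exactly 4 genes had a median of 5815 UMIs, and the 130 unselected cells with 3 genes that met the limit on the genes counted against had 3358. XTH21 averaged 10.7 UMIs per 10000 inside and 12.6 outside, NPF2.4 5.04 and 6.88, GATA23 1.80 and 0.979, and RSA1 2.4 and 1.27. LBD16, which the rule did not use, averaged 1.42 inside and 0.399 outside, and AT3G26610, a pectin lyase-like gene also outside the rule, 1.31 and 0.731.

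The share of cells selected was 1.78% in WT replicate 1 (Wilson 95% interval 1.25% to 2.51%) and 2.75% in WT replicate 2 (2.33% to 3.23%). In lbd_quad it was 0.946% in replicate 1 (0.480% to 1.85%) and 2.12% in replicate 2 (1.65% to 2.71%). The genotypes overlapped, with WT at 2.26% ± 0.687 (SD, n = 2) and lbd_quad at 1.53% ± 0.831 (SD, n = 2), and the two-sided exact permutation p was 0.667, where 0.333 is the smallest this design allows. After every cell was thinned to 2000 UMIs, which left out 660, 2466, 29 and 1272 shallower cells, the shares were 0.737% and 1.27% in WT and 0.612% and 1.31% in lbd_quad. At that depth the genotypes differed by -0.0436 percentage points. The same cells before thinning gave 2.85% and 5.13% in WT against 0.979% and 3.18% in lbd_quad, a difference of -1.91, and all cells gave -0.728. With at least 5 of the 7 genes the shares were 1.26% and 1.62% in WT and 0.709% and 0.800% in lbd_quad, which did not overlap (exact permutation p = 0.333, the smallest possible).

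The values that chose the cells are given here as a description, with no test. XTH21, a xyloglucan-modifying enzyme of the cell wall, was the most abundant of the 7 genes. Its level, the mean over cells of UMIs per 10000, was 11.8 and 13.0 in WT against 14.3 and 10.3 in lbd_quad, and it was found in 97.5% of selected cells against 3.80% of other cells. TPS8, a terpene synthase, stood at 5.18, 3.33, 6.53 and 3.47 in WT replicates 1 and 2 and lbd_quad replicates 1 and 2, the order used below for 4 values. NPF2.4, a member of the nitrate and peptide transporter family, stood at 4.62, 3.42, 5.33 and 6.55. AT3G61490, a pectin lyase-like gene, stood at 2.23, 2.03, 3.76 and 3.87, and RSA1, of the tyrosine transaminase family, at 1.93, 2.28, 4.32 and 4.30. These 5 genes were found in 71.1% to 97.5% of the selected cells, so they made up most of each cell's count.

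GATA23 and LBD14 were each found in a minority of the selected cells. LBD14 is a member of the LBD transcription factor family. GATA23 was found in 94 of the 239 cells (39.3%) and LBD14 in 115 (48.1%), against 0.360% and 0.428% of other cells. Both were found in 39 cells, GATA23 alone in 55, LBD14 alone in 76 and neither in 69. The GATA23 level was 0.335 and 0.920 in WT against 1.70 and 3.47 in lbd_quad, from 7, 79, 19 and 111 UMIs. Both mutant libraries lay above both WT libraries, as they did for NPF2.4, AT3G61490 and RSA1, and for 18.4% of 8349 genes. In other cells GATA23 had the same order of genotypes, at 0.00474, 0.0132, 0.0150 and 0.0491. LBD14 stood at 1.63 and 1.07 in WT and 1.33 and 0.561 in lbd_quad, which overlapped. GATA23 was found in 22.6%, 35.3%, 50.0% and 55.7% of the selected cells of the 4 libraries, and LBD14 in 71.0%, 51.1%, 62.5% and 27.9%. The gene that carried a cell over the threshold thus varied between libraries, and the selected cells of lbd_quad replicate 2 held GATA23 more often than LBD14.

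Free RNA in droplets was gauged in cells that carry markers of root hair epidermis, where these genes should be absent. With every cell thinned to 2000 UMIs, GATA23 was found in 19.3% of 223 selected cells, 0.255% of 5879 other cells and 1.67% of 60 hair-marker cells. LBD14 was found in 17.0%, 0.289% and 0% of them, and 0 of 60 cells allows a share of up to 5.00%. Before thinning the hair-marker shares were 1.16% and 0% of 86 cells, at a median of 3814 UMIs against 8800 in selected cells and 2461 in other cells. Of these 86 cells, WT replicates 1 and 2 gave 8 and 72, and lbd_quad replicates 1 and 2 gave 1 and 5. Free RNA in the mutant libraries was thus hardly gauged.

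The genes counted against were mostly scarce in selected cells, but the limit on them removed only 3 cells and hardly set these levels. NPF7.3 had levels of 0, 0.00722, 0 and 0.175, SKOR 0, 0, 0 and 0.112, and PHO1 0, 0.0637, 0 and 0.417. Only bZIP6, a transcription factor, was found in many selected cells, at 0.313, 0.730, 0.203 and 0.881. Of the 239 cells, 168 had none of the 4 genes, 63 had 1 and 8 had 2.

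**Figure D2:**
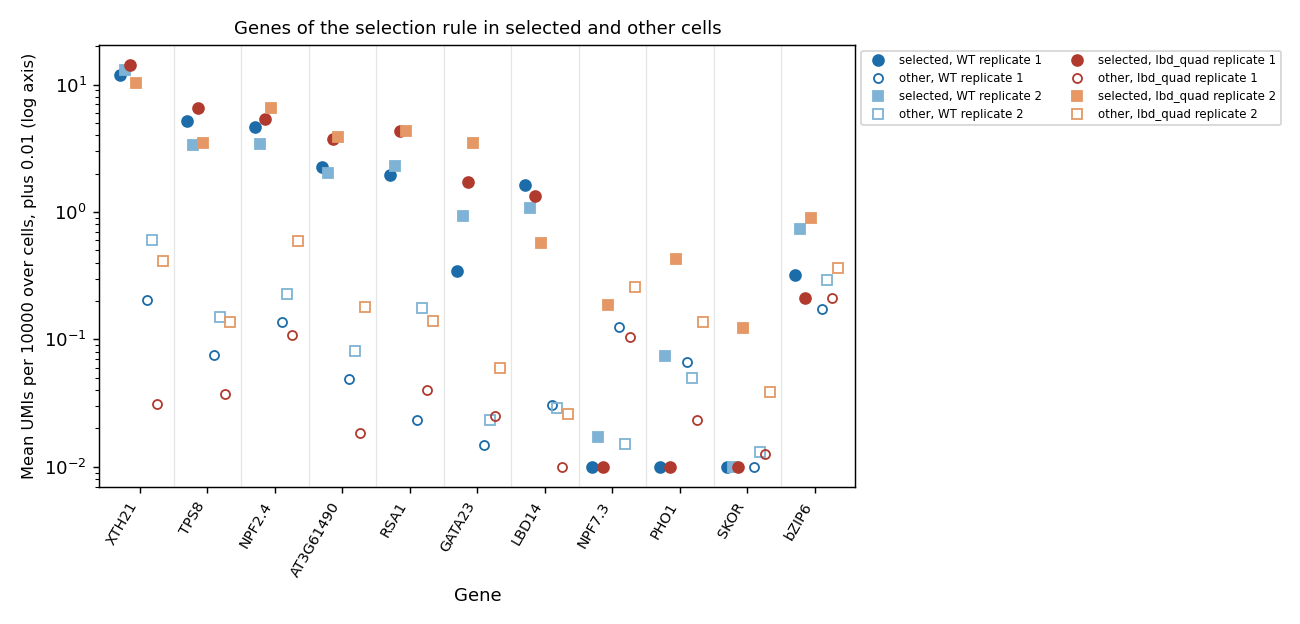
Level of the 11 genes of the rule (x axis) as mean UMIs per 10000 over cells plus 0.01, on a log axis, with 1 filled point per library for selected cells and 1 open point for all other cells. The 7 genes counted for are higher in selected cells because the rule chose them so, and GATA23 is the 1 of the 7 that spreads most between libraries, from 0.335 to 3.47.

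The name pericycle was checked against markers that the rule did not use. Of 9 such pericycle and xylem-side stele markers, HMA4 alone was higher in selected cells in every library, and 2 had no UMI in any selected cell. HMA4, which exports zinc towards the xylem, stood at 0.262, 0.369, 0.419 and 0.837 in selected cells and at 0.0103, 0.0368, 0.00287 and 0.120 in other cells. The summed level of the 9 markers was 0.262 to 1.05 in selected cells and 0.107 to 0.384 in other cells, and HMA4 made up most of it. Of 13 stele regulators, SHR alone was higher in every library, at 0.555, 0.115, 0.364 and 0.0793 against 0.0384, 0.0624, 0.0218 and 0.0596, and 8 were lower. SHR, a GRAS factor, is transcribed in the stele. Only 1 of the 9 pericycle markers had a mean level of at least 0.1 in selected cells, so most were too scarce to check the label. A single raised marker is too few for a name, so these markers neither bear out nor exclude the pericycle label. The cells are called here the GATA23 and LBD14 cells, after 2 genes of the rule. The name does not mean that each cell held both, which were found together in 39 cells, with neither found in 69. Markers of ion-loading pericycle could not set a comparison group either: cells with 3 or more of the genes counted against numbered 0, 1, 1 and 9 in the 4 libraries.

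Markers of endodermis, cortex, xylem, phloem and root cap were low in the GATA23 and LBD14 cells. The summed level of stem cell niche markers, mostly AGL42, was not lower throughout. All 9 endodermis markers were lower than in other cells in every library, with summed levels of 0.0329 to 1.24 against 3.71 to 9.29. The highest sum was that of lbd_quad replicate 1, where CASP1, a protein of the Casparian strip, stood at 0.376. Xylem markers summed to 0 to 0.285 against 1.03 to 6.63, with 5 of 11 at 0, phloem markers to 0 to 0.164 against 0.524 to 1.71, with 6 of 9 at 0, and cortex markers to 0.0676 to 0.451 against 0.906 to 3.01. Root cap markers summed to 0.435 and 1.39 in the selected WT cells and 0 and 0.102 in the selected lbd_quad cells, against 2.04 to 21.1 in other cells. Most of these sums was CEP2, at 0.378, 1.34, 0 and 0.102 in selected cells and 20.0, 15.2, 4.51 and 1.89 in other cells. In other cells BRN1 and CEL5 were also lower in both mutant libraries, while SMB, BRN2 and FEZ overlapped between genotypes. The sum thus moved with genotype mainly through 1 gene. The part of root cap RNA in the genotype values below was not tested. Markers of the quiescent centre and stem cell niche summed to 0.497, 0.318, 0.106 and 0.288 in selected cells against 0.304, 0.363, 0.157 and 0.321 in other cells. Most of that was AGL42, a MADS factor found in 19.7% of selected and 8.16% of other cells, while WOX5, which marks the quiescent centre itself, had 1 UMI. PLT1, PLT2 and BBM had no UMI in selected cells. Of the 6 niche markers, 3 were lower than in other cells in all 4 libraries and 0 were higher. A marker of that list was found in 58 selected cells, and 3 or more in 0. Only 3 selected cells held 3 or more markers of another class.

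Listed genes of lateral root founding outside the rule were then examined, and LBD16 was higher than in other cells in every library. LBD16 is a direct target of ARF7 and ARF19 in lateral root initiation. It stood at 0.163, 1.02, 0.429 and 3.28 in selected cells and at 0.0157, 0.0345, 0.0679 and 0.140 in other cells, so the lowest selected library lay just above the highest unselected one. These levels rest on 3, 199, 5 and 246 UMIs in 53 cells, and most came from the replicate 2 libraries. Thinned to 2000 UMIs, LBD16 was found in 12.6% of selected, 1.07% of other and 1.67% of hair-marker cells. LBD17 (AT2G42440), its neighbour in sequence and position, stood at 0, 0.169, 0 and 0.608, and LBD29 at 0, 0.162, 0 and 0.132, while LBD18, which acts later in lateral root emergence, had 0 UMIs. Reads that fit both LBD16 and LBD17 could have been split or dropped, since the counting of shared reads is not given in the sources used here.

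Of the 27 lateral root genes outside the rule that were measured, 3 were higher in selected than in other cells in all 4 libraries, LBD16, LRP1 and CEP5, and 9 were lower. Of the 13 with a mean level of at least 0.1 in selected cells, 3 were higher and 2 lower, beside 21.8% higher and 20.1% lower of the 8349 genes above that filter. The filter favours genes that are high in selected cells, and the listed genes are not shown to depart from the rest. Counts above the filter for the other lists are to be read against the same 21.8% and 20.1%. Counts over a whole list have no such share to be set against. CEP5 (AT5G66815), a peptide that restrains lateral root initiation, stood at 2.38, 1.49, 1.04 and 3.35 against 0.441, 1.42, 0.0980 and 0.722 in other cells. IAA28, the repressor known to act before GATA23, stood at 3.03, 1.84, 3.19 and 1.15 against 2.47, 1.87, 1.32 and 1.45 in other cells, higher in both replicate 1 libraries and slightly lower in both replicate 2 libraries. It was found in 63.2% of selected and 31.5% of the shallower other cells. EXPA17, a cell wall expansin induced during lateral root outgrowth, was among the lower genes, at 0.574, 0.198, 0.181 and 0 against 7.63, 1.90, 0.316 and 0.209.

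LBD16 marked a subset of the GATA23 and LBD14 cells. In WT replicate 2 the 26 selected cells with an LBD16 UMI had a median of 15920 UMIs and the 113 without had 6172, and in lbd_quad replicate 2 the 22 with had 12158 and the 39 without had 4344. A deeper cell shows LBD16 more readily, so levels per 10000 UMIs are compared here and no test is given. IAA19, an early auxin-induced repressor, stood at 2.08 in LBD16 cells and 0.267 in the rest of WT replicate 2, and at 5.35 and 0.114 in lbd_quad replicate 2. IAA2 stood at 4.09 and 0.533 in the first library and 2.93 and 0.504 in the second, and IAA30 at 1.49 and 0.102, and 1.36 and 0.326. PIN3, an auxin exporter, stood at 1.11 and 0.288, and at 0.947 and 0.187. These genes were picked after their values were seen and were higher in the LBD16 cells of both libraries. The repressors IAA14 and IAA28 were lower there in both, IAA14 at 0.890 against 1.06 and 0.630 against 0.866, and IAA28 at 1.70 against 1.87 and 0.695 against 1.40.

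JAZ1, a jasmonate-induced repressor, stood at 13.9 in the LBD16 cells and 2.23 in the rest of WT replicate 2, and at 7.86 and 2.65 in lbd_quad replicate 2. LBD17 stood at 0.614 in the LBD16 cells and 0.0668 in the rest of WT replicate 2, and at 1.59 and 0.0523 in lbd_quad replicate 2. Over all 4 libraries it was found in 21 of the 53 LBD16 cells, at a median of 13550 UMIs. It was found in 4 of the 186 others, at a median of 6988 UMIs. Of the genes of the rule, XTH21 stood at 13.9 in LBD16 cells and 12.8 in the rest of WT replicate 2, and at 10.3 in both of lbd_quad replicate 2. GATA23 was lower in the LBD16 cells, at 0.654 against 0.981 and 2.88 against 3.79 in the 2 libraries, as were NPF2.4 (3.05 against 3.5, and 5.87 against 6.93) and TPS8 (2.82 against 3.45, and 2.46 against 4.05). LBD14 was higher, at 1.37 against 1.00 and 0.861 against 0.392, and RSA1 was lower in the first library (1.61 against 2.43) and higher in the second (4.99 against 3.92). HAT2, an auxin-induced homeobox gene, was at 5.94 and 0.835 in WT replicate 2 but at 1.11 and 0.764 in lbd_quad replicate 2, so its difference was small in the mutant library. Single cells weighed heavily: 1 cell held 68 of the 163 IAA19 UMIs of lbd_quad replicate 2 and 1 held 65 of its 246 LBD16 UMIs. LBD16 was found in 31 of 94 cells with GATA23 (33.0%, median 6188 UMIs) and in 22 of 145 without it (15.2%, median 9757 UMIs). Libraries differed in both genes, and within WT replicate 2 the shares were 22.4% and 16.7%, within lbd_quad replicate 2 47.1% and 22.2%. The difference was not tested.

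Of 16 auxin transport and synthesis genes, 2 were higher than in other cells in all 4 libraries and 8 lower, and of the 9 above the filter 2 were higher and 3 lower. TAR2, a tryptophan aminotransferase of auxin synthesis, was higher at 0.295, 0.415, 0.555 and 0.912 against 0.0437, 0.173, 0.0451 and 0.206. LAX3, an auxin importer of cells that overlie a lateral root, was lower at 0.319, 0.326, 0.0817 and 0.274 against 1.11, 1.86, 1.04 and 1.13. Of 17 auxin response genes, 0 were higher in all 4 libraries and 4 were lower, and of the 9 above the filter 0 were either.

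Of 21 further LBD genes, LBD16, LBD38 and LBD39 were higher in all 4 libraries, 10 were lower and 10 had no UMI in selected cells. Of the 7 above the filter, 3 were higher and 2 lower. LBD38, which represses nitrogen-responsive genes, stood at 1.27, 1.20, 2.13 and 1.49 against 0.801 to 1.12 in other cells. The 4 genes mutated in lbd_quad were scarce in these cells in either genotype. LBD12 (ASL5) stood at 0.493 and 0.144 in WT against 0 and 0.0294 in lbd_quad, from 10, 15, 0 and 1 UMIs. The 0 of lbd_quad replicate 1 allows a level of up to 0.240, above that of WT replicate 2, so a fall was not shown. Other cells held more of it, at 2.59, 1.30, 0.338 and 0.145. LBD15 had 1, 1, 0 and 0 UMIs, and LBD36 (ASL1) and LBD6 (AS2) had 0, so a loss of these genes could not be seen here.

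Of 14 cell division genes, CDKB1;1, MCM2, MCM5 and PCNA1 were higher in selected cells in all 4 libraries and 5 were lower. Of the 5 above the filter 4 were higher and 0 lower, beside 21.8% and 20.1% of all genes above it. CDKB1;1, a cell cycle kinase, stood at 0.427, 0.206, 0.266 and 0.374 against 0.138, 0.111, 0.137 and 0.0891, and PCNA1, a DNA replication clamp, at 0.779, 0.451, 0.528 and 0.810 against 0.303, 0.392, 0.372 and 0.468. PCNA2 was not higher throughout, at 0.473, 0.315, 0.256 and 0.391 against 0.261, 0.377, 0.363 and 0.434. CDT1A, a DNA replication licensing factor, was lower at 0, 0.0221, 0.0676 and 0.00815 against 0.0788, 0.181, 0.129 and 0.137. CYCB1;1, a mitotic cyclin, had 1 UMI in all 239 cells. CYCD2;1, a G1 cyclin, stood at 0.236, 0.109, 0.306 and 0.248 in selected cells.

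The study's title concerns communication between cells, which plasmodesmata, the channels between plant cells, and callose at them control. Of 22 genes of callose and plasmodesmata, 2 were higher in the GATA23 and LBD14 cells in all 4 libraries, PDLP8 and PDLP2, and 8 were lower. Of the 10 above the filter, 2 were higher and 2 lower. PDLP8, a protein that sits at plasmodesmata, stood at 0.220, 0.0986, 0.480 and 0.151 against 0.0117 to 0.0435. PDLP7, of the same family, stood at 0.808 and 0.467 in WT and 0 and 0.133 in lbd_quad. Wounding and regeneration genes were lower in all 4 libraries for 8 of 15 and higher for 0, and of the 11 above the filter 5 were lower.

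Of 20 relatives of the genes of the rule, 3 were higher than in other cells in all 4 libraries, 13 were lower and 6 had no UMI. Of the 8 above the filter, 3 were higher and 4 lower. XTR6, a close relative of XTH21, was higher at 2.00, 1.34, 0.881 and 2.53 against 0.112, 0.473, 0.371 and 0.805. XTH19, another member of that enzyme family, was lower at 0.469, 0.384, 0.181 and 0.263 against 4.31, 4.35, 4.64 and 4.89. AT4G20230, a terpene synthase family gene, reached 0.0707 to 0.129 against at most 0.00517.

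**Figure D3:**
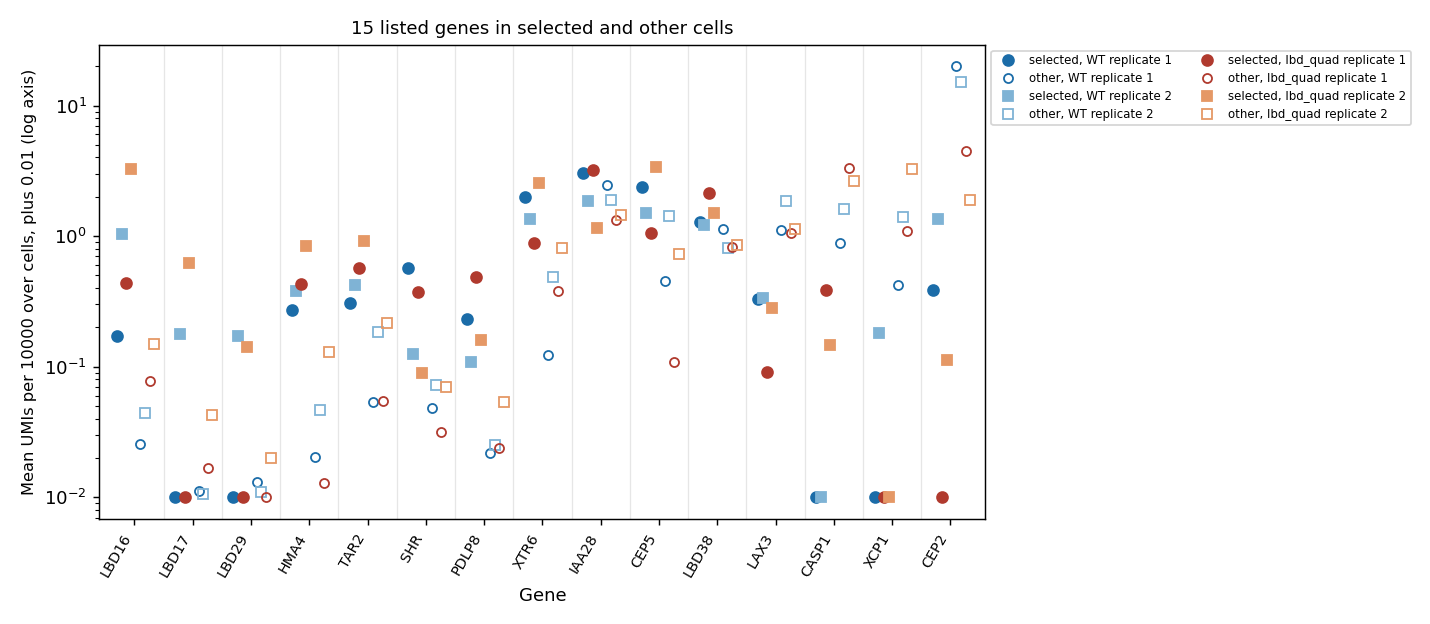
Level of 15 listed genes outside the rule (x axis) as mean UMIs per 10000 over cells plus 0.01, on a log axis, with filled points for selected and open points for other cells of each library. The genes were chosen for drawing after their values were seen, and LBD16, HMA4, TAR2 and XTR6 lie above other cells in every library while LAX3 lies below.

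Genes outside the rule that set these cells apart were ranked by the lowest library level in selected cells over the highest in other cells. Of 1543 genes at 1 or more UMI per 10000 in selected cells, 360 had all selected libraries above all unselected ones, and 46 by at least 2-fold. These genes share cells with the rule, so the ranking is a description with no test. AT3G26610, a pectin lyase-like gene, led at 1.91, 1.25, 2.06 and 1.65 against at most 0.0470 in other cells, a ratio of 26.5. AT5G09760, of the invertase and pectin methylesterase inhibitor superfamily, stood at 1.52, 1.40, 2.90 and 2.15 against at most 0.235, and AT4G23500, another pectin lyase-like gene, at 0.474, 1.06, 1.71 and 2.47 against at most 0.101.

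Hormone and metabolic genes followed among the 25 leading genes. PYL2, a receptor of abscisic acid, stood at 2.16, 0.908, 1.29 and 0.346 against at most 0.0777. FKD1, which acts in leaf vein patterning, was even across libraries in selected cells, with 1.13 in WT replicate 2 and 1.07 in lbd_quad replicate 2. PS2, a pyrophosphatase known from phosphate-starved plants, stood at 0.739, 1.18, 1.02 and 1.84 against at most 0.196. LCR68, of the plant defensin family, was the most abundant of the 25, at 59.8, 41.5, 47.1 and 28.2 against 6.88, 11.5, 4.06 and 10.1. PMEAMT, a methyltransferase of phosphocholine synthesis, stood at 6.60, 5.89, 7.49 and 8.55 against at most 2.04. The others included the subtilase AT5G44530, the MYB factor MYBC1, the selenium-binding protein gene SBP3, the tetraspanin TET6, the sulfotransferase SOT18 and the dehydroascorbate reductase DHAR1.

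**Figure D4:**
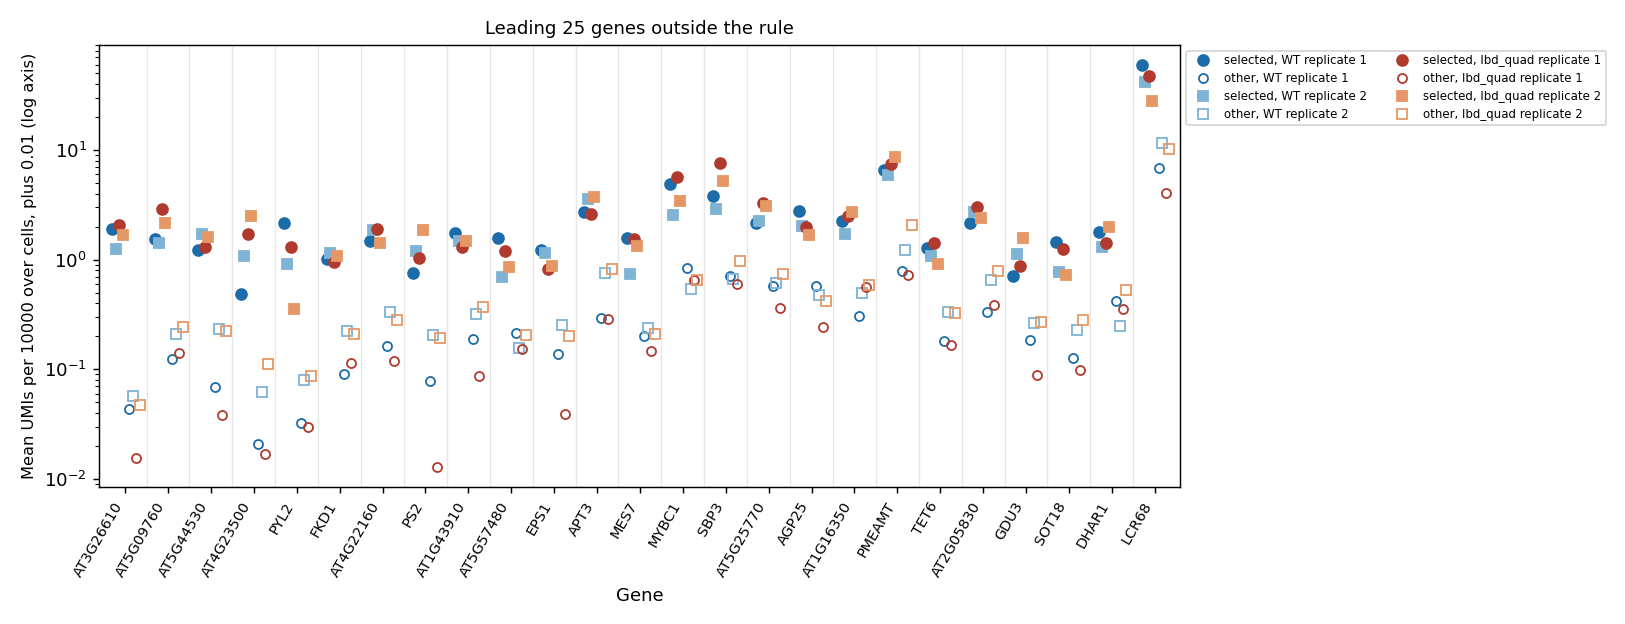
Level of the 25 leading genes outside the rule (x axis) as mean UMIs per 10000 over cells plus 0.01, on a log axis, with filled points for selected and open points for other cells of each library. Every filled point lies above every open point of its gene, which is how the genes were ranked, and AT3G26610 has the widest gap.

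The GATA23 and LBD14 cells also lay near each other in the expression of genes that neither the rule nor any list held. Among the 15 nearest cells of a selected cell, 59.8% on average were selected, against 0.987% for the neighbours of other cells. The share was 71.2%, 58.7%, 70.0% and 55.4% in the 4 libraries, and 155 of 239 selected cells had mostly selected neighbours while 8 had none. Another 61 cells lay among mostly selected neighbours without being selected, at a median of 5126 UMIs, and 58 of them held 1 to 3 of the 7 genes. The rule thus left out some cells of like expression. Of all neighbours of selected cells, 73.5% came from the same library, with 45.4%, 90.1%, 10.0% and 58.5% in the 4 libraries. Selected cells were deeper than other cells, and the part of depth in this nearness was not tested.

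The genotypes were then compared within the selected cells, with the library as the unit. The question was whether loss of the 4 LBD genes altered transcription in these cells. In limma with Benjamini-Hochberg adjustment, 0 of 8349 genes passed 0.05 (0%), 354 had an unadjusted p under 0.05 (4.24%) and the lowest adjusted p was 0.294. Without lbd_quad replicate 2, 3 genes passed, 1 higher and 2 lower. Both lbd_quad libraries lay above both WT libraries for 18.4% of genes and below for 14.5%. The library lbd_quad replicate 1 had 8 cells, under the minimum of 10 that had been planned for a test, and the fit keeps it. With at least 3 of the 7 genes, which gave 45, 215, 10 and 99 cells, 0 genes passed and the lowest adjusted p in limma was 0.0612. In simulated data of this size, 23 of 200 genes changed by a log2 change of 2 were called, and 178 of 200 changed by 4, so changes of the smaller size could mostly not be detected. The changed genes were drawn only from the more abundant of the tested genes, so detection of genes near the filter was not simulated.

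The 5 genes of smallest unadjusted p in each direction are given, none of which passed. TIP2;2 (AT4G17340), an aquaporin of the vacuolar membrane, stood at 0.880 and 0.699 in WT against 11 and 6.69 in lbd_quad. Its log2 change on the scale of level plus 0.1 was 3.3 (SE 0.37; adjusted p in limma 0.294). In other cells it stood at 0.458, 0.816, 0.563 and 2.42. Both mutant libraries lay far above both WT libraries in selected cells, and 1 cell of lbd_quad replicate 2 held 129 of that library's 332 UMIs.

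AT4G30450 and AT4G30460, neighbouring glycine-rich protein genes, were likewise higher in both mutant libraries. AT4G30450 stood at 0 and 0.0937 in WT against 2.33 and 1.36 in lbd_quad, with a log2 change of 3.76 (SE 0.51; adjusted p in limma 0.436). AT4G30460 stood at 0.571 and 0.446 in WT against 3.03 and 2.20 in lbd_quad (log2 change 2.15, SE 0.38), while in other cells it went the other way, at 0.449 and 0.294 in WT and 0.0685 and 0.137 in lbd_quad. The limma test of that difference gave an adjusted p of 0.919. PAL4, a phenylalanine ammonia-lyase of lignin precursor synthesis, stood at 0.0242 and 0.0266 in WT and 0.646 and 0.913 in lbd_quad. Its levels rest on 1, 2, 6 and 52 UMIs. AT5G05960, of the lipid-transfer type, stood at 0.0248 and 0.229 in WT and 1.32 and 2.84 in lbd_quad.

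The 5 lower genes were all more abundant in other cells than in the selected ones. AT1G17860, a Kunitz-type inhibitor gene, stood at 1.93 and 1.30 in WT and 0 and 0.110 in lbd_quad, against 11.5, 8.76, 11.2 and 8.94 in other cells. AT5G26260, a TRAF-like gene, stood at 1.60 and 1.57 in WT and 0.106 and 0.193 in lbd_quad, and AGP31, an arabinogalactan protein gene, at 1.66 and 2.61 in WT and 0.251 and 0.328 in lbd_quad. AT4G15160 stood at 0.724 and 0.835 in WT and 0 and 0.0409 in lbd_quad, and AT3G04320, a second Kunitz-type gene, at 0.880 and 0.734 in WT and 0.0676 and 0 in lbd_quad. In other cells 4 of the 5 were also lower in both mutant libraries, AT5G26260 at 17.2, 21.3, 5.12 and 6.20 for example. The part of free RNA from those cells in the selected values was not tested.

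**Figure D5:**
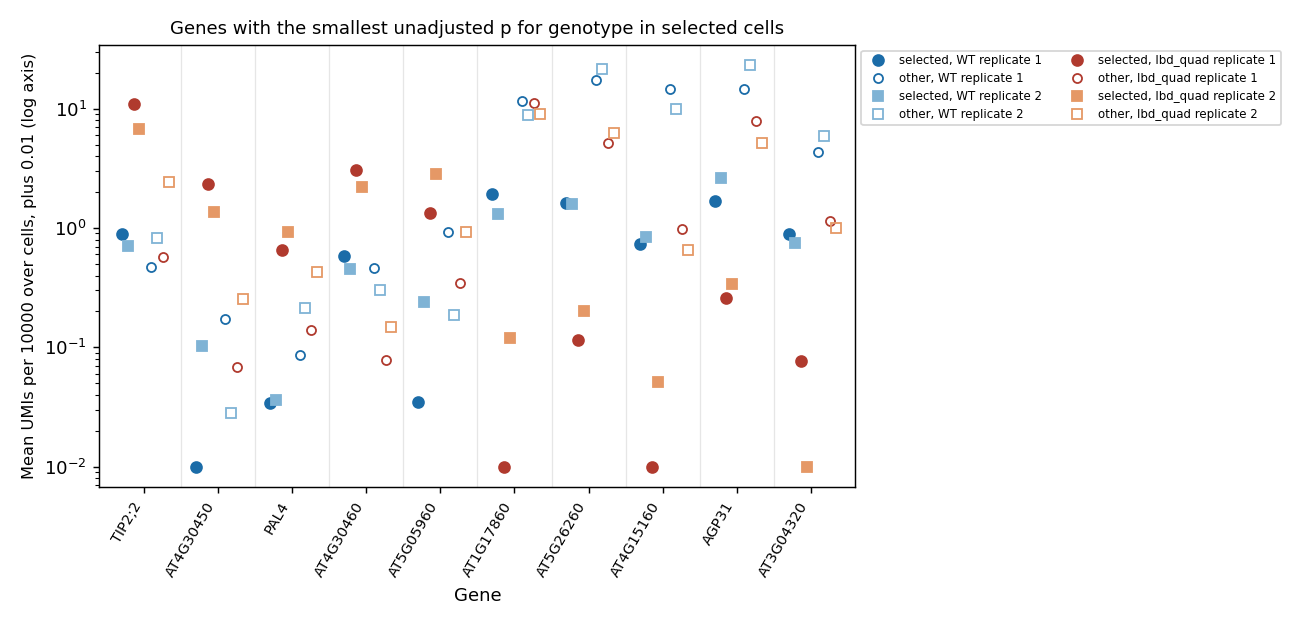
Level of the 10 genes of smallest unadjusted p between genotypes in selected cells (x axis) as mean UMIs per 10000 over cells plus 0.01, on a log axis, with filled points for selected and open points for other cells of each library. TIP2;2 lies at 6.69 and 11 in the selected lbd_quad cells against 0.699 and 0.880 in WT, and the 5 genes on the right are higher in other cells than in selected cells.

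No listed gene passed the limma threshold between genotypes. Of 13 lateral root genes that passed the filter on low values, 4 were higher and 1 lower in both mutant libraries, with a median log2 change of 0.46 against 0.04 over all genes, of which 18.4% were higher and 14.5% lower. LRP1, expressed in lateral root primordia, stood at 0.134 and 0.116 in WT and 0.659 and 0.345 in lbd_quad, a log2 change of 1.37 (SE 0.47; adjusted p in limma 0.978). KRP2, an inhibitor of cell division in the pericycle, stood at 0.330 and 0.275 in WT and 0.658 and 0.725 in lbd_quad. These levels rest on 6, 19, 5 and 24 UMIs for LRP1 and 14, 35, 7 and 27 for KRP2. LBD16 overlapped between genotypes, with a log2 change of 1.30 (SE 0.96).

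The counts of the other lists are likewise to be read against those 18.4% and 14.5%. Of auxin response genes, 1 of 9 was higher and 0 lower in both mutant libraries, with a median of 0.57. The higher gene was IAA13, at 0 and 0.200 in WT and 0.296 and 0.780 in lbd_quad. Of 9 auxin transport and synthesis genes, 1 was higher and 3 lower (median -0.38), and TAR2 was the higher one. Of 10 callose and plasmodesmata genes, 0 were higher and 1 was lower (median -0.20), which was PDLP7 with a log2 change of -2.23 (SE 0.57; adjusted p in limma 0.978). Of 7 LBD genes, 1 was higher and 3 lower (median -0.14), of 11 wounding and regeneration genes 1 and 0 (median 0.36), and of 5 cell division genes 0 and 2 (median -0.22). LBD12, one of the 3 LBD genes lower by observed level, had a log2 change of -1.74 (SE 0.62; adjusted p in limma 0.978).

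Whether the genotype effect differed between the GATA23 and LBD14 cells and all other cells was tested on the difference itself. In limma, 0 of 10448 genes passed an adjusted p of 0.05 (0%), 504 had an unadjusted p under 0.05 (4.82%) and the lowest adjusted p was 0.919. Without WT replicate 2, 3 genes passed, all higher in lbd_quad relative to other cells.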

How the data were processed

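Protoplasts of cut root tips were sequenced as 3' droplet libraries, 2 per genotype. Per the submitters' processing notes, Cell Ranger 7.0.1 and Seurat were used. The genome build, annotation, cell filters and doublet removal are not given in the sources used here. The authors deposited 1 matrix of natural log values, each the natural log of 1 plus UMIs per 10000 of the cell. All values (100%, tolerance 0.01) came out as whole UMIs when rescaled. Cells carried 562 to 24898 UMIs. Columns that match no sample (3315) were not used, and 67 rows are not nuclear genes.

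Levels are means over cells of UMIs per 10000. limma 3.58.1 (R 4.3.3, trend, Benjamini-Hochberg) tested log2(level + 0.1) for genes with a mean of at least 0.1, so folds of low genes are understated. No count model was run on these log values. The difference test used each library's selected minus other cells. Shares were compared by exact permutation tests, with Wilson intervals that cover counting error only. Neighbours came from 2000 variable genes without listed genes, 40 principal components and 15 neighbours (Python 3.11.15). No doublet caller was run. The simulation covered 8349 genes of the genotype fit and called 0 genes when nothing was changed, and 3 and 7 unchanged genes beside the 200 changed by 2 and 4.

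The members, lists and tests were chosen with earlier results of these data known. Named genes are those of the rule, list counts, the 4 mutated genes, the 5 of smallest unadjusted p in each direction and the 25 with the highest ratio of lowest selected to highest other level. Other list members, the drawn, thinned and threshold genes, the LBD16 split and the neighbour comparison were chosen after values were seen. The planned comparison with PHO1 and SKOR cells could not be run, for want of cells. The planned minimum of 10 cells per library was missed by lbd_quad replicate 1 (8 cells), and the fit that keeps it was added after the counts were known. Of 249 listed identifiers, 234 were measured and the others were not analysed here. No sequences are shown, since the build is not given. Alternatives were another pseudocount, no filter, library sums, deeper cells, 3 or 5 of 7 genes, size factors, 8 cells per library, exclusion of mixed cells, a replicate block and leaving out each library.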

Additional observations from a re-analysis of the deposited data

How the results depend on the processing

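Neither the share of selected cells nor their depth reversed under any alternative run. Leaving out 1 library moved the difference in share from -1.32 to -0.140 percentage points and that in median UMIs from 89.0 to 8141, the lowest without lbd_quad replicate 1, the library of 8 selected cells. The genotype fit called 0 genes under every alternative that kept 4 libraries and no block, and 0 to 3 when 1 library was left out, with 3 without lbd_quad replicate 2. The difference from other cells gave 0 to 3, with 3 without WT replicate 2. A fit that leaves out a library assumes that the lone sample varies like the other genotype. With the replicate block the genotype fit called 94 genes (48 higher, 46 lower) and the difference 39 (29 higher, 10 lower). The replicate numbers only name the libraries: same-numbered libraries deviated together at r = 0.307 over 8349 genes and 0.261 over 10448, over 2 pairs, too few to establish pairing. Under that block TIP2;2 had a limma adjusted p of 5.25e-09, and over its 14 alternatives the log2 fold change ran from 2.43 to 3.66. For the 10 named genes and LBD12, 0 of 154 alternative values reversed. Values passed the threshold only with the replicate block, whose pairing was not established, or with lbd_quad replicate 2 left out. The number of cells limits lbd_quad replicate 1 most: its 8 selected cells were deep but held 124984 UMIs in all, the fewest of the 4 libraries.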
